A study of Mus musculus with 13 samples.

Results

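The genes described here encode the receptor complex that recognises lipopolysaccharide (LPS, the endotoxin of Gram-negative bacteria) and the adaptors and kinases that carry its signal. There were 10: Cd14, Tlr4, Ly96, Lbp, Myd88, Ticam1, Ticam2, Irak1, Irak4 and Traf6. They were chosen by name. A gene counted as measured when the array had a probe set with that single gene symbol, and 9 of the 10 were measured, out of 22180 genes in all, each by 1 probe set. Irak4 had no such probe set and is not analysed here.

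Expression was measured with 13 Affymetrix whole-transcript arrays in S1 segments, the first stretch of the kidney's proximal tubule, from male C57BL/6J mice. The control group (4 arrays) received sterile saline. The LPS group (4 arrays) received 5 mg/kg of LPS 0111:B4 into the peritoneum and was studied 24 h later, and the sample labels give this dose as 100 ug. The LPS/LPS group (5 arrays) was preconditioned with 0.25 mg/kg (5 ug in the labels), was given the same 5 mg/kg after 24 h, and was studied 24 h after that larger dose. All animals were thus of the same sex and strain background and differed in treatment. The sources used here give neither the mice's age nor how the segments were isolated, and they do not say that each array came from its own animal. The p-values below therefore reflect only how far these samples spread, which may be technical.

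LPS-binding protein (Lbp) takes LPS out of bacterial membranes and hands it to Cd14, a surface protein with no signalling part of its own. Cd14 passes it to Ly96 (also called MD-2), which sits on the receptor Tlr4. The engaged receptor signals through Myd88 and the kinases Irak4 and Irak1 to the ubiquitin ligase Traf6 and on to NF-kB, and, after uptake into endosomes, through Ticam2 (TRAM) and Ticam1 (TRIF) toward interferon genes. In the kidney, Tlr4 is known on proximal tubule cells as well as on macrophages, and S1 cells are known to take up filtered endotoxin.

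Among the 9 measured genes, the separation between groups was seen in Cd14. Its level was 2.82-fold higher in LPS than in control, with no overlap between arrays, and in LPS/LPS it lay close to control. No member passed the threshold, an adjusted p under 0.05 over all 22180 genes by limma (a linear model with moderated variances), in any comparison. The 8 other members overlapped between groups in every comparison, as nearly all genes did. Groups did not overlap for 3.15% of all genes in LPS vs control, 1.54% in LPS/LPS vs control and 2.4% in LPS/LPS vs LPS.

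Values are the deposited log2 levels, in which a step of 1 is a doubling on the linear scale. Levels of different genes come from different probes, so the comparisons of level between genes given here are only rough. As a background reference, a log2 level of 4.77 was used, below which 95% of 1105 olfactory receptor genes had their mean, a family taken as mostly silent in the kidney tubule. Of all genes, 9.95% had a mean over all arrays above it, and of the 9 members 0 did. The nearest were Ticam1 and Ticam2, whose means of 4.46 and 4.43 exceeded 91.9% and 91.7% of the olfactory receptor genes, and the farthest was Ly96, at 2.27 and 32.2%. Sizes of change in these genes are therefore uncertain. The S1 label was met by its markers in part: 6 of 12 S1 and S2 markers lay above the reference, led by the phosphate cotransporter gene Slc34a1 at 10.09, while the glucose transporter gene Slc5a2 had a mean of 4.27. Among 6 markers of later nephron segments (loop, distal tubule, collecting duct), Umod alone lay above it, at 5.17.

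**Figure D1:**
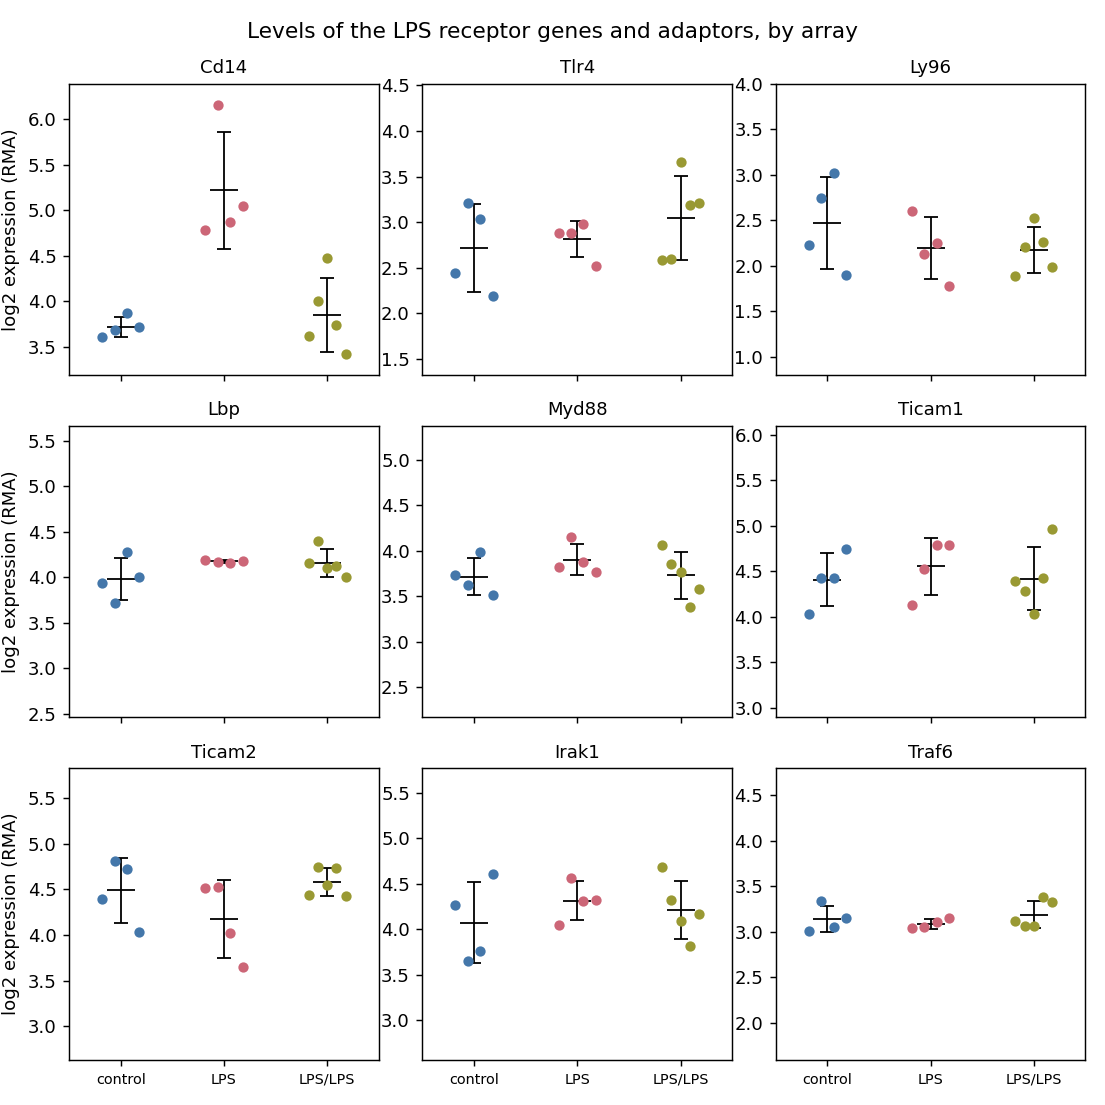
Log2 expression (RMA) of the 9 measured genes in each array, with points for arrays and bars for the group mean ± SD (n = 4, 4 and 5). Every vertical axis spans the same number of log2 units; the 4 LPS arrays stand above all other arrays for Cd14, and the groups overlap in the other panels.

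Cd14 is the co-receptor that concentrates LPS for Tlr4 and is needed for the receptor's uptake into endosomes. Its log2 levels in the control arrays, replicates 1 to 4, were 3.61, 3.68, 3.87 and 3.72. The LPS arrays read 4.78, 6.16, 4.87 and 5.05. The LPS/LPS arrays, replicates 1 to 5, read 3.62, 4.00, 4.47, 3.74 and 3.42. Every LPS array was above every array of the other groups and above the background reference, whereas all control and LPS/LPS arrays were below that reference. LPS replicate 2 was the highest, and LPS/LPS replicate 3 came nearest to the LPS arrays.

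The comparison of LPS with control asks what a single large dose does to these genes. The mean Cd14 level was 3.72 ± 0.11 (SD, n = 4) without LPS and 5.22 ± 0.64 (SD, n = 4) after it, which makes a log2 difference of 1.497 (SE 0.28, 95% interval 0.90 to 2.10). Its limma p was 9.9e-05 before adjustment and 0.11 after Benjamini-Hochberg adjustment over all genes, so it did not pass. By p it ranked 20 of 22180 genes, and 17 among those that were higher. In this comparison limma called 0 genes (0%) after adjustment and 1427 (6.43%) at an unadjusted p under 0.05, and 1 of the 9 members, Cd14, was among the latter. The groups did not overlap for 3.15% of all genes and for 1 of 9 members, again Cd14.

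The comparison of LPS/LPS with LPS asks how preconditioning alters the response to the same challenge. Cd14 averaged 3.85 ± 0.41 (SD, n = 5) in LPS/LPS, a log2 difference from LPS of -1.36 (SE 0.26, 95% interval -1.93 to -0.80, limma adjusted p = 0.0919). It ranked 34 of 22180 genes by p. limma called 14 genes (0.0631%) after adjustment, and 0 members were among them. At an unadjusted p under 0.05 it called 1910 genes (8.61%), and 1 of 9 members. The groups did not overlap for 2.4% of all genes and for 1 of 9 members, Cd14 in each count. This comparison shares its 4 LPS arrays with the comparison of LPS with control, so the 2 Cd14 differences are not independent of each other.

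Against control, LPS/LPS differed in Cd14 by 0.13 (SE 0.26, 95% interval -0.44 to 0.70, limma adjusted p = 0.991). That interval, from 0.74-fold to 1.62-fold, does not reach the 2.82-fold difference measured in LPS. Here limma called 2 genes (0.00902%) after adjustment and 1042 (4.7%) at an unadjusted p under 0.05, with 0 of 9 members in either count, and the groups did not overlap for 1.54% of all genes and 0 of 9 members. Over the 3 groups together, the limma F-test gave Cd14 an adjusted p of 0.0942. It called 14 genes (0.0631%) and 0 members.

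**Figure D2:**
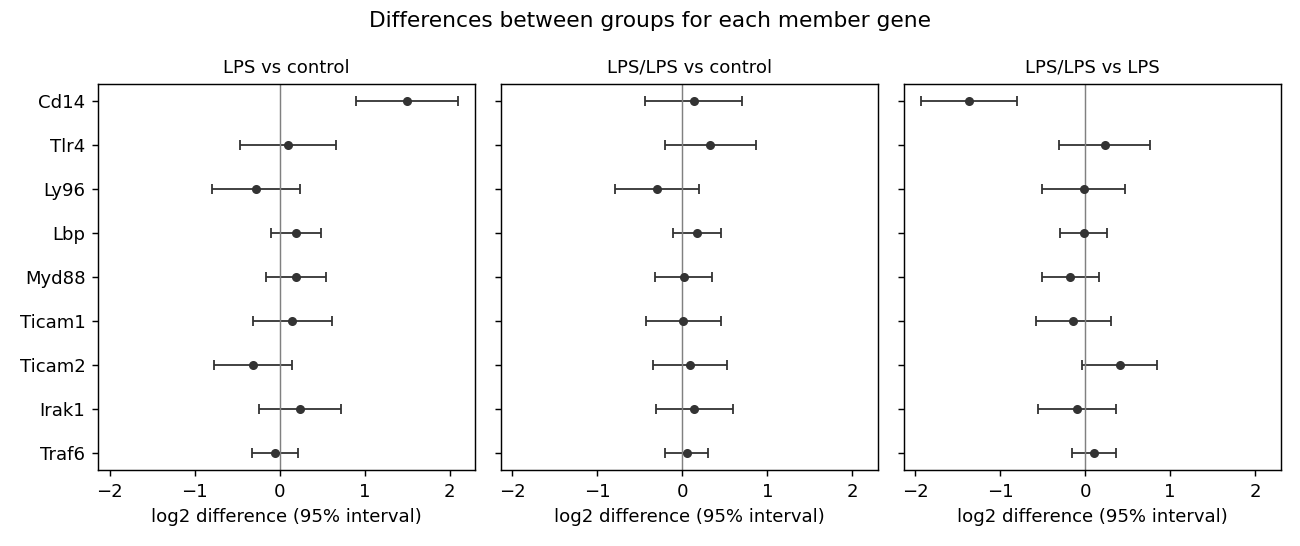
Log2 differences between groups for the 9 genes in the 3 comparisons, with limma's 95% intervals not adjusted for the number of genes. The Cd14 intervals lie between 0.90 and 2.10 for LPS vs control and between -1.93 and -0.80 for LPS/LPS vs LPS; all other intervals cross 0.

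LPS replicate 2, the highest array, carried part of the Cd14 difference. With it left out, the LPS minus control difference was 1.18 (SE 0.21, adjusted p = 0.143) and the LPS/LPS minus LPS difference was -1.05 (SE 0.20, adjusted p = 0.141). Leaving out any other array gave values between 1.46 and 1.64 for the first and between -1.52 and -1.26 for the second. Without LPS replicate 1, the lowest LPS array, Cd14 passed in LPS/LPS vs LPS (adjusted p = 0.0388) but not in LPS vs control (adjusted p = 0.0642). With limma's array weights, which lower the influence of noisier arrays, it passed in both, with differences of 1.82 (adjusted p = 0.0278) and -1.62 (adjusted p = 0.0404).

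**Figure D3:**
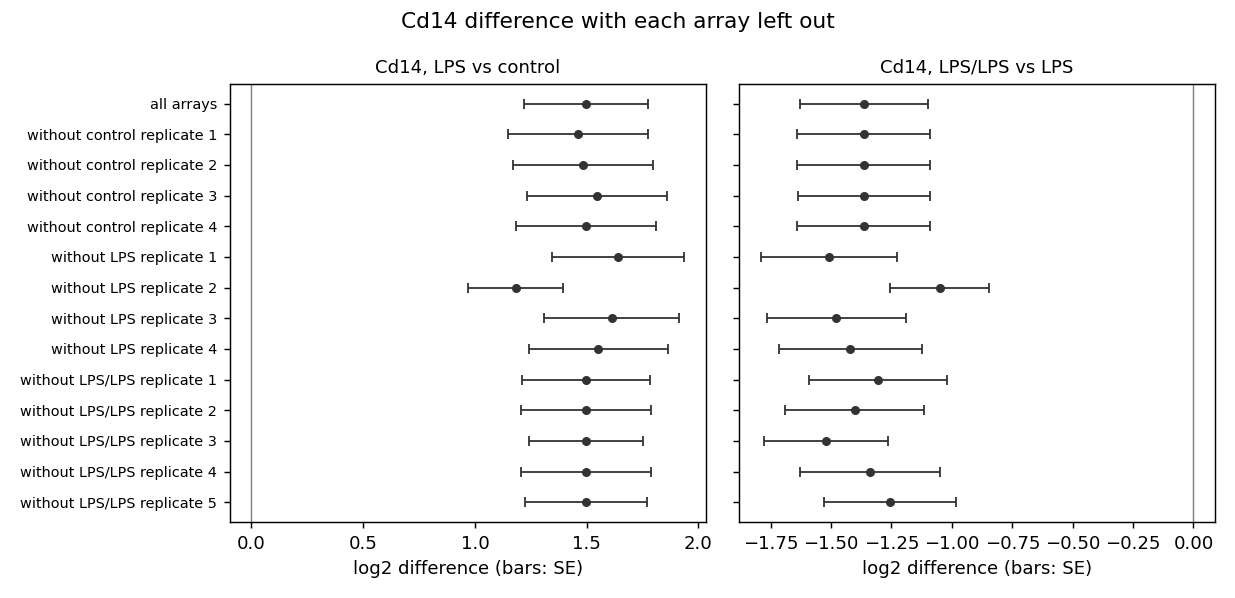
Cd14 log2 differences with each of the 13 arrays left out in turn, beside the value from all arrays (bars, SE). LPS minus control stays between 1.18 and 1.64 and LPS/LPS minus LPS between -1.52 and -1.05, and the value nearest 0 in each panel is the fit without LPS replicate 2.

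The arrays fell into 7 with a wide and 6 with a narrow distribution of log2 values, split at an SD of 1.328. Among the wide arrays, Cd14 averaged 3.67 in 2 control, 5.36 in 3 LPS and 3.52 in 2 LPS/LPS arrays. Among the narrow ones it averaged 3.77 in 2 control arrays and 4.07 in 3 LPS/LPS arrays, and the only LPS array read 4.78. LPS minus control was thus 1.69 in the wide and 1.01 in the narrow arrays, and LPS/LPS minus LPS was -1.84 and -0.71. With the class as a block the differences were 1.53 (adjusted p = 0.127) and -1.40 (adjusted p = 0.121). In both classes the LPS mean was above those of the other groups.

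Cd14 is also expressed by monocytes and macrophages. In bulk samples such as these, fewer cells of a type and less RNA per cell cannot be told apart. The summed level of 16 measured markers of macrophages and monocytes, on the log2 scale, ranged from 7.99 to 8.20 in control, 8.15 to 8.26 in LPS and 8.17 to 8.36 in LPS/LPS. The ranges of LPS and LPS/LPS overlapped. Of the 16 markers, 12 had positive and 4 negative differences in LPS vs control. In that comparison 0 had an unadjusted p under 0.05, against 6.43% of all genes. Between LPS/LPS and LPS, 10 were positive and 6 negative. At an unadjusted p under 0.05, 2 were lower and 1 higher (18.8% of the list, against 8.61% of all genes). The efferocytosis receptor gene Mertk (-0.67, limma adjusted p = 0.386) and Ly6c2 (-0.52, adjusted p = 0.543) were lower. The fractalkine receptor gene Cx3cr1 (0.40, adjusted p = 0.49) was higher. In LPS vs control these genes differed, in that order, by 0.40, 0.43 and -0.14 (adjusted p = 0.785, 0.781 and 0.906). Mertk and Ly6c2 thus had differences of the same sign as Cd14 in both comparisons, and Cx3cr1 had the opposite sign in both. The macrophage-defining genes Adgre1, Cd68, Csf1r and C1qa had means over all arrays between 3.90 and 4.51, below the background reference, and Cx3cr1 was the only marker of the list above it. Their part in the Cd14 difference was not tested.

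Other cells and segments gave these values. The summed level of 10 neutrophil markers ranged from 6.93 to 7.45 in control, 6.79 to 7.30 in LPS and 6.96 to 7.35 in LPS/LPS, with 0 of 10 above the reference. That of 8 endothelial markers ranged from 6.78 to 6.95, 6.90 to 7.33 and 6.92 to 7.05 in the same order, with 0 of 8 above it. Of the 8, 7 had positive differences in LPS vs control, and 2 (25%, against 6.43% of all genes) had an unadjusted p under 0.05, the junction genes Pecam1 (0.75, limma adjusted p = 0.685) and Cdh5 (0.53, adjusted p = 0.719). Between LPS/LPS and LPS 5 of 8 were negative, and Pecam1 (-0.57, adjusted p = 0.562) was the only one with an unadjusted p under 0.05. Pecam1 thus had a difference of the same sign as Cd14 in both comparisons, and the part of endothelial cells in the Cd14 difference was not tested. Markers of the later segments summed to 9.21 in LPS replicate 3, against 6.55 to 7.49 in the other 12 arrays. Without that array Cd14 differed by 1.61 in LPS vs control and -1.48 in LPS/LPS vs LPS, and the part of these segments in the Cd14 difference was not tested. S1 and S2 markers summed to 11.19 to 11.72 in control, 9.998 to 11.47 in LPS and 9.04 to 10.45 in LPS/LPS. The median sum was lowest in LPS/LPS, and the ranges of the sum in LPS and LPS/LPS overlapped. That sum is mostly Slc34a1 (mean over all arrays 10.09, with Slc22a6 next at 6.26). Gene by gene, 7 of 12 were higher in LPS vs control, 0 in LPS/LPS vs control and 1 in LPS/LPS vs LPS. At an unadjusted limma p under 0.05, 2 (16.7%), 5 (41.7%) and 4 (33.3%) were lower in the same order, and 0 higher. Of all genes 6.43%, 4.7% and 8.61% had such a p.

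**Figure D4:**
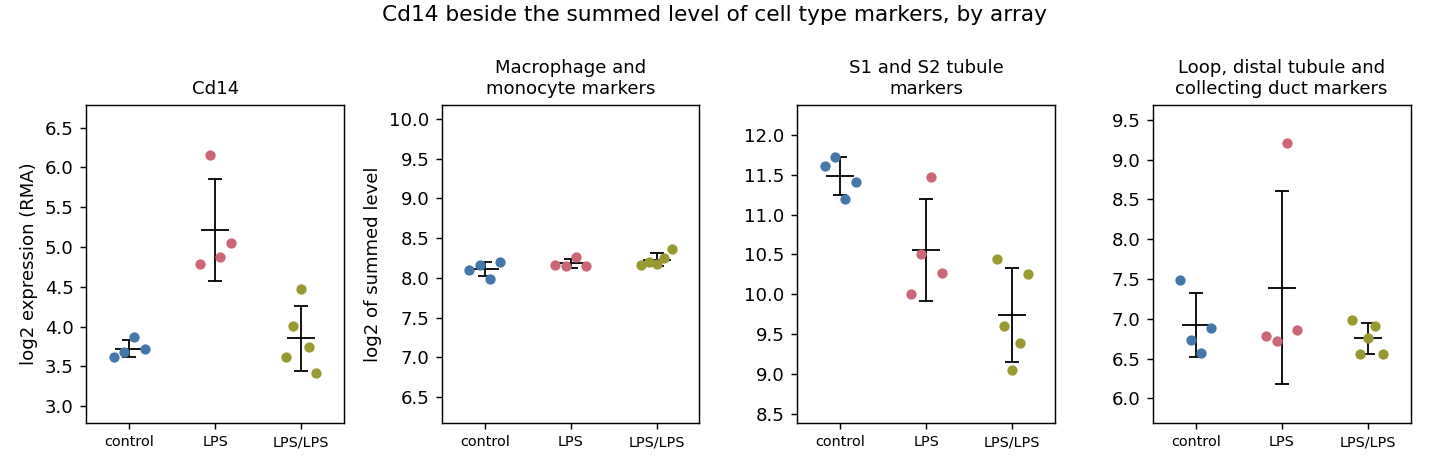
Cd14 (log2 expression) beside the log2 of the summed linear levels of 3 marker lists in each array, with bars for the group mean ± SD; all vertical axes span the same number of log2 units. Cd14 is high in the 4 LPS arrays, and the macrophage and monocyte sum stays between 7.99 and 8.36 in all arrays. LPS replicate 3 stands apart in the sum for later segments. The S1 and S2 sum is mostly Slc34a1.

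Lbp, the serum carrier that delivers LPS to Cd14, is made mainly by the liver in the acute phase. It read 3.94, 3.72, 4.28 and 4.00 in control, 4.19, 4.17, 4.16 and 4.18 in LPS, and 4.16, 4.40, 4.10, 4.12 and 4.00 in LPS/LPS. The 4 LPS arrays were close together and lay within the range of the control arrays. Lbp differed by 0.19 in LPS vs control (SE 0.14, 95% interval -0.10 to 0.48, limma adjusted p = 0.837) and by 0.17 in LPS/LPS vs control (SE 0.13, adjusted p = 0.987). Hepatocyte markers, listed because of this liver origin, summed to 7.32 to 7.60 in control, 7.03 to 7.59 in LPS and 7.01 to 7.84 in LPS/LPS. Of these 6 markers, 3 had a mean above the background reference, the highest being Alb at 5.93. A mean above the reference thus does not by itself set tubule markers apart from those of another organ.

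Tlr4, the signalling receptor itself, read 2.44, 3.21, 3.03 and 2.18 in control and 2.88, 2.88, 2.98 and 2.52 in LPS. The LPS/LPS arrays read 2.58, 2.59, 3.66, 3.19 and 3.21. Control and LPS/LPS arrays each spread over about a log2 unit, and the LPS arrays lay inside the control range. The difference was 0.10 in LPS vs control (95% interval -0.47 to 0.66, limma adjusted p = 0.958), 0.33 in LPS/LPS vs control (-0.21 to 0.86, adjusted p = 0.987) and 0.23 in LPS/LPS vs LPS (-0.30 to 0.77, adjusted p = 0.832). The first changed sign, to -0.08, without control replicate 4.

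Ly96, the LPS-binding partner of Tlr4, lay lowest of the members among the olfactory receptor genes. Its levels were 2.23, 2.74, 3.02 and 1.90 in control, 2.60, 2.13, 2.26 and 1.78 in LPS, and 1.89, 2.21, 2.53, 2.26 and 1.99 in LPS/LPS. The groups overlapped, and every array was below the background reference. It differed by -0.28 in LPS vs control (95% interval -0.80 to 0.24, limma adjusted p = 0.869) and by -0.30 in LPS/LPS vs control (-0.79 to 0.19, adjusted p = 0.987).

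Of the adaptors, Myd88 links the receptor to the Irak kinases. It read 3.74, 3.62, 3.99 and 3.51 in control, 3.82, 4.15, 3.87 and 3.77 in LPS, and 4.06, 3.85, 3.77, 3.39 and 3.58 in LPS/LPS. The array with the highest Myd88 was LPS replicate 2, which was also the highest for Cd14. Myd88 differed by 0.19 in LPS vs control (SE 0.16, 95% interval -0.16 to 0.54, limma adjusted p = 0.871) and by -0.17 in LPS/LPS vs LPS (SE 0.16, -0.51 to 0.16, adjusted p = 0.786).

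Ticam2 bridges the endosomal receptor to Ticam1, the adaptor of the interferon arm. Ticam2 read 4.40, 4.81, 4.72 and 4.03 in control, 4.51, 4.53, 4.02 and 3.64 in LPS, and 4.44, 4.75, 4.55, 4.74 and 4.42 in LPS/LPS. The 2 lowest values of all 13 arrays belonged to LPS replicates 4 and 3, while LPS replicates 1 and 2 lay within the LPS/LPS range. It had the lowest p of the members other than Cd14, with a log2 difference of 0.41 in LPS/LPS vs LPS (SE 0.20, 95% interval -0.03 to 0.84, limma adjusted p = 0.604). Without LPS replicate 4 that difference was 0.23 (adjusted p = 0.824). Ticam1 read 4.03, 4.43, 4.43 and 4.75 in control, 4.13, 4.52, 4.79 and 4.79 in LPS, and 4.40, 4.28, 4.03, 4.43 and 4.96 in LPS/LPS. Its groups covered nearly the same range, and it differed by 0.15 in LPS vs control (95% interval -0.31 to 0.61, adjusted p = 0.92) and by -0.14 in LPS/LPS vs LPS (-0.58 to 0.30, adjusted p = 0.888).

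Irak1, a kinase that Myd88 recruits, read 4.27, 3.65, 3.76 and 4.61 in control, 4.04, 4.57, 4.31 and 4.32 in LPS, and 4.68, 4.32, 4.09, 3.82 and 4.17 in LPS/LPS. The control arrays alone covered almost the full range of the other groups. It differed by 0.24 in LPS vs control (95% interval -0.24 to 0.72, limma adjusted p = 0.88). Traf6, the ubiquitin ligase downstream of the Irak kinases, read 3.01, 3.34, 3.06 and 3.15 in control, 3.04, 3.05, 3.11 and 3.15 in LPS, and 3.12, 3.07, 3.07, 3.38 and 3.32 in LPS/LPS. It was the steadiest member across arrays, with a residual SD of 0.13 against 0.44 for Cd14. It differed by -0.05 in LPS vs control (-0.32 to 0.22, adjusted p = 0.956) and by 0.10 in LPS/LPS vs LPS (-0.15 to 0.36, adjusted p = 0.846).

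Apart from Cd14, the 8 members differed by -0.32 to 0.24 in LPS vs control, -0.30 to 0.33 in LPS/LPS vs control and -0.17 to 0.41 in LPS/LPS vs LPS. All 8 of their 95% intervals held 0 in each comparison, and together those intervals ran from 0.575-fold to 1.82-fold. Intervals that hold 0 do not show that the genes were unchanged. Over the 9 members the median difference was 0.15, 0.09 and -0.02 in the same order, beside -0.02, 0.03 and 0.05 over all genes.

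The signalling steps beyond the receptor and its co-factors were followed in a list of 44 other genes of LPS signalling, of which 39 were measured and 4 had a mean above the background reference. In each comparison limma called 0 of the 39 after adjustment. At an unadjusted p under 0.05, 2 were higher and 1 lower in LPS vs control (7.69% of the list, against 6.43% of all genes). In LPS/LPS vs control 0 were higher and 3 lower (7.69%, against 4.7%), and in LPS/LPS vs LPS 0 were higher and 3 lower (7.69%, against 8.61%). These shares lay near those of all genes. The median difference of the list was 0.06, 0.02 and -0.05.

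Nfkbia encodes the inhibitor that holds NF-kB in the cytoplasm and is itself a target of NF-kB. It read 4.48, 4.33, 4.31 and 4.36 in control, 4.64, 5.38, 5.23 and 5.24 in LPS, and 4.42, 4.41, 4.72, 3.77 and 4.98 in LPS/LPS. The LPS arrays all lay above the control arrays, as for Cd14, but overlapped with LPS/LPS. It differed by 0.75 in LPS vs control (SE 0.23, limma adjusted p = 0.547) and by -0.66 in LPS/LPS vs LPS (SE 0.21, adjusted p = 0.414). Rela, the p65 subunit of NF-kB, averaged 3.84 ± 0.36 (SD, n = 4) in control, 4.42 ± 0.22 (SD, n = 4) in LPS and 3.97 ± 0.24 (SD, n = 5) in LPS/LPS. Its difference was 0.58 in LPS vs control (SE 0.19, adjusted p = 0.601), and the control and LPS arrays overlapped. Between LPS/LPS and LPS it was -0.45 (SE 0.18, adjusted p = 0.501), and the arrays did not overlap.

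Hsp90b1 encodes gp96, the chaperone that folds toll-like receptors in the endoplasmic reticulum. It averaged 4.78 ± 0.35 (SD, n = 4) in control, 5.53 ± 0.84 (SD, n = 4) in LPS and 4.16 ± 0.41 (SD, n = 5) in LPS/LPS, and differed by -1.37 in LPS/LPS vs LPS (SE 0.33, limma adjusted p = 0.203). LPS replicate 1, at 4.47, fell within the LPS/LPS range, and LPS replicate 3, at 6.43, was the highest. Bpi encodes a neutrophil protein that binds and neutralises LPS. Among the lower genes of this pathway list, Bpi had the lowest p in LPS vs control (-0.52, SE 0.16, adjusted p = 0.576). The ubiquitin-conjugating factor gene Ube2v1 followed (-0.34, adjusted p = 0.84). Bpi lay at 2.502 to 3.63 in all arrays, below the background reference. In LPS/LPS vs control the lowest p values among the list's higher genes belonged to the transcription factor gene Jun (0.33) and the kinase-binding gene Tab1 (0.32). Among its lower genes they belonged to Bpi (-0.36) and the ubiquitin ligase gene Peli2 (-0.36). Each of these 4 had an adjusted p of 0.987, and over all genes Jun ranked 1641 by p. Between LPS/LPS and LPS the leading higher genes of the list were Casp4, the intracellular LPS sensor (0.29, adjusted p = 0.584), and Fos (0.28, adjusted p = 0.695).

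**Figure D5:**
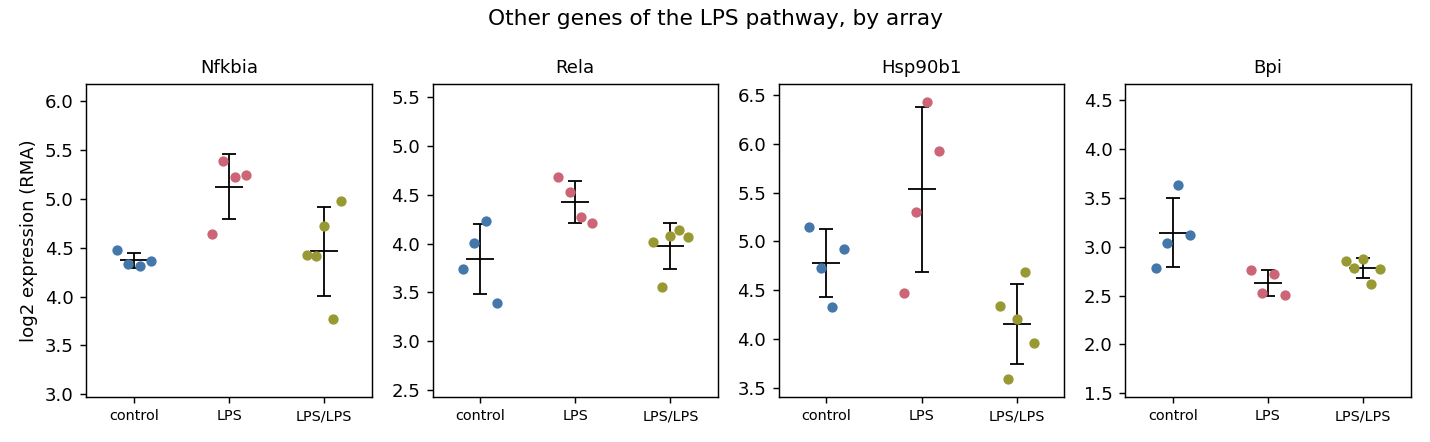
Log2 expression (RMA) of Nfkbia, Rela, Hsp90b1 and Bpi in each array, with bars for the group mean ± SD (n = 4, 4 and 5) and vertical axes of equal span. The LPS arrays lie above the control arrays for Nfkbia and below them for Bpi; Hsp90b1 spreads from 4.47 to 6.43 within the LPS group.

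The 11 other toll-like receptor genes, Tlr1 to Tlr3, Tlr5 to Tlr9 and Tlr11 to Tlr13, were all measured. None of them (0 of 11 by limma, after adjustment or at an unadjusted p under 0.05) was called in any comparison. Of all genes, at most 0.0631% were called after adjustment. At an unadjusted p under 0.05 the share of all genes was 6.43% in LPS vs control, 4.7% in LPS/LPS vs control and 8.61% in LPS/LPS vs LPS. With 11 genes, a count of 0 lies near these shares. Differences of the 11 receptor genes ran from -0.30 to 0.24, -0.16 to 0.38 and -0.15 to 0.41 in the same order. The upper end of the latter ranges was Tlr5, the flagellin receptor. Tlr9, the receptor for bacterial DNA, was the only one with a mean above the reference, at 4.78 against 4.77. That margin is slight, and the Tlr9 mean in the LPS group, 4.70, was below the reference.

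The genes whose pattern was most like that of Cd14 over the 13 arrays, among the 2207 genes above the reference, were the kinase gene Sik1, the fibrinogen gamma chain gene Fgg, the adhesion scaffold gene Bcar1, the orosomucoid gene Orm2 and the ribosome assembly factor gene Eif6. Their Pearson correlations with Cd14 were 0.944, 0.931, 0.896, 0.893 and 0.863, and Spearman's rho was 0.791, 0.923, 0.852, 0.775 and 0.742. These values describe the likeness, since the arrays share groups. After each group's mean was removed the correlations were 0.837, 0.786, 0.778, 0.567 and 0.658. The mean level of Fgg was 3.76 in control, 6.71 in LPS and 4.31 in LPS/LPS, and that of Orm2 was 5.59, 8.16 and 5.71. Fgg and Eif6 (4.39, 5.57 and 4.72 in the same order) had a group mean above the reference in LPS alone, so they entered this comparison only through the LPS arrays. Since all 5 genes were picked for their likeness to Cd14, nothing is read from their order of groups. LPS replicate 2 was the highest array for Cd14, Sik1, Fgg, Bcar1 and Orm2. For Myd88 the most alike were Cbx2, Plekho1, Jund, Gbp10 and Snord89, with Pearson correlations from 0.672 to 0.756, lower than those of Cd14. After each group's mean was removed they were 0.781, 0.661, 0.62, 0.797 and 0.59 in that order, within the range of those of Cd14. Jund (4.75 in control, 5.38 in LPS and 4.73 in LPS/LPS) also had a group mean above the reference in LPS alone. It too entered only through the LPS arrays.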

How the data were processed

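The values analysed are log2 levels of probe sets on 13 arrays, as deposited by the authors. RMA (robust multi-array averaging, which combines a probe set's probes into 1 log2 value) and Partek 6.6 appear in the submitters' processing notes; the background step, normalization between arrays and genome build were not given. Per the labels, 2 ng of RNA per sample was labelled by the Affymetrix WT Pico method. The table held 41345 probe sets with array medians from 3.56 to 3.68. Detection calls were not made, and precision is limited by how many arrays each group has.

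Gene symbols came from the platform annotation, in which 23521 probe sets had 1 symbol, 1814 several and 16010 none listed. Only the first were used. For a gene with several probe sets the one with the highest mean was taken, leaving 22180 genes. All arrays entered 1 limma 3.58.1 fit in R 4.3.3 (lmFit, eBayes, no covariates), two-sided, with Benjamini-Hochberg adjustment over all genes and a threshold of 0.05. The fit was tested on simulated data.

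The members and lists were chosen with earlier results of these data known. The text names all members and, per comparison, the 2 higher and 2 lower other pathway genes with the lowest p (or those past the threshold), the highest gene of a marker list, and the 5 genes most correlated with Cd14 and with Myd88 among genes above the olfactory receptor reference. Rela, Pecam1, Cdh5, Tlr5, Tlr9, Slc5a2, Mertk, Ly6c2 and the macrophage-defining genes were named after their values were seen. The split of arrays by SD, at the largest gap, was also chosen after seeing the data.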

Additional observations from a re-analysis of the deposited data

How the results depend on the processing

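In LPS vs control the Cd14 difference ran from 1.18 to 1.82 (limma adjusted p from 0.0278 to 0.325). In LPS/LPS vs LPS it ran from -1.62 to -1.05 (adjusted p from 0.0388 to 0.309). Its direction was the same in all 23 alternatives that included Cd14, but not all of these could move the difference. In LPS vs control it stayed at 1.497 with the other probe-set rules, only the 2 groups compared, and genes above the median level. The same held with trended and robust moderation, the replicate block, and single LPS/LPS arrays left out. With array weights 1 member, Cd14, was called in each of these comparisons, and leaving out single arrays gave 0 members in LPS vs control and 0 to 1 in LPS/LPS vs LPS. Against the olfactory reference as a filter no member could be tested, and above the median level Tlr4, Ly96 and Traf6 could not.

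Counts over all genes moved more. In LPS vs control limma called 30 genes with array weights, 5 after quantile normalization, 3 above the olfactory reference, 9 above the median level, 7 with trended and robust moderation, 3 with the replicate block, and 0 to 24 with single arrays left out. In LPS/LPS vs control it called 1 with all probe sets, 0 with only the 2 groups compared, 4 after quantile normalization, 1 after median centring, 1 above the median level, 0 with the replicate block, 4 with the array spread class as a block, and 0 to 3 with single arrays left out. In LPS/LPS vs LPS it called 2 with only the 2 groups compared, 41 with array weights, 9 after quantile normalization, 4 with the replicate block, and 5 to 96 with single arrays left out, the most without LPS replicate 1. The F-test called 22 with all probe sets, 41 with array weights, 7 after quantile normalization, 2 with the replicate block, and 1 to 39 with single arrays left out. The causes were not tested.

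Of 27 member differences 18 kept their sign throughout, and the 9 that changed it lay between -0.10 and 0.13. In LPS/LPS vs control Myd88 was -0.012 after quantile normalization and -0.013 after median centring, and Ticam1 was -0.079 with array weights, -0.016 and -0.017 after those normalizations and -0.13 with the replicate block. Against LPS, LPS/LPS differed in Ly96 by 0.032 with array weights and 0.030 with the replicate block, Lbp by 0.0051 and 0.021, and Irak1 by 0.072 with the spread class as a block. With single arrays left out, the differences that changed sign ranged as follows: in LPS vs control Tlr4 from -0.079 to 0.26 and Traf6 from -0.094 to 0.014; in LPS/LPS vs control Cd14 from -0.023 to 0.24, Myd88 from -0.068 to 0.11, Ticam1 from -0.13 to 0.12 and Ticam2 from -0.065 to 0.20; in LPS/LPS vs LPS Ly96 from -0.15 to 0.12, Lbp from -0.079 to 0.021 and Irak1 from -0.21 to 0.0026. Replicate numbers showed little sign of pairing the arrays, although these values cannot exclude a pairing. Deviations from the group means correlated from -0.35 to 0.21 over 12 same-numbered pairs, and 2 of 12 arrays correlated best with their own number. With the replicate block, Cd14 differed by 1.497 in LPS vs control (adjusted p = 0.186) and -1.26 in LPS/LPS vs LPS (adjusted p = 0.309).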

Other observations

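Several members differed more with the width of an array's value distribution than between LPS and control. The values are given without a test because the classes were defined from these arrays. Classes and treatments were also unbalanced. Narrow and wide arrays numbered 2 and 2 in control, 1 and 3 in LPS, and 3 and 2 in LPS/LPS, so the class means partly carry treatment. Ly96 averaged 2.56 ± 0.30 (SD) in the 6 narrow and 2.02 ± 0.18 in the 7 wide arrays, and Tlr4 averaged 3.09 ± 0.36 and 2.68 ± 0.35. Ticam2 averaged 4.68 ± 0.12 and 4.21 ± 0.32. Irak1 went the other way, with 3.95 ± 0.25 in the narrow and 4.42 ± 0.20 in the wide arrays, as did Ticam1, with 4.29 ± 0.18 and 4.61 ± 0.32. The narrow minus wide differences of Ly96 (0.54), Ticam2 (0.47) and Tlr4 (0.41) were larger in size than their differences between LPS and control, while Lbp (0.05) and Traf6 (0.03) differed little. For Ticam2 the difference between LPS/LPS and LPS, 0.41, was near that of the classes.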
